A study of Mus musculus with 8 samples.

Results

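The comparison described here sets tdTomato-high cells sorted from mouse skin wounds 21 days after wounding against the same kind of cells sorted at 12 days. Both groups carried the genotype Sm22-Cre;tdTomato on a mixed background, and the labels call the cells cutaneous wound myofibroblasts; the labels name no gene deletion and no treatment other than the wound. The red reporter marks cells that have at some time used the Sm22 (Tagln) promoter, which also drives in smooth muscle, so the gate follows a history of promoter use and not a current level. Each of days 12, 15, 21 and 26 has 2 libraries, made by SMART-seq2. The labels give no age and do not state whether 2 libraries of 1 day are separate animals; every p-value here therefore covers only the spread seen between libraries, which may be technical. Members were taken by level: of the 43346 genes in the deposited table, the 15062 with a TPM of at least 1 in 2 or more of the 8 libraries were tested. TPM is a share of all transcripts corrected for transcript length, and the 2 libraries of a day are always given in the order of their column numbers.

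Wound myofibroblasts are contractile, matrix-making fibroblasts. In a healing wound they arise from fibroblasts of the surrounding skin, carry stress fibres rich in smooth muscle actin, lay down collagen and pull the wound edges together, and their number falls as the scar matures. Mouse skin with large wounds is known for regenerating hair follicles in its centre, and later fat cells near them. A change in a bulk level cannot tell fewer cells of a type from less RNA per cell, which holds for every value below.

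All 4 libraries of the comparison carried fibroblast transcripts at a high level, Col1a1 among them at 14131 TPM or more. Pearson's r of log2(TPM + 1) was 0.98 between the day 12 libraries, 0.976 between the day 21 libraries, and from 0.939 to 0.945 across the days. Between 13650 and 14147 genes stood at 1 TPM or above in these libraries. Tagln, the gene behind the Sm22 promoter, was present in every library, at 254 and 175 TPM on day 12 and 84.5 and 85.5 TPM on day 21. Xist, the RNA made from the inactive X chromosome of females, was at 0.01 and 0 TPM on day 12 and at 4.78 and 27.5 TPM on day 21, while the Y-linked Ddx3y was at 26.8 and 24.8 TPM on day 12 and 24.5 and 7.43 TPM on day 21. Without strand, Xist cannot be told apart from its antisense partner Tsix. Both day 21 libraries thus held transcripts of both kinds and the day 12 libraries almost no Xist, and the part of sex in the comparison was not tested.

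Between day 12 and day 21, 547 genes rose and 1008 fell. Among the rises were fibril collagens, elastic fibre genes, proteoglycans, secreted Wnt inhibitors and cell cycle inhibitors, and among the falls contractile, mitosis, interferon-stimulated and macrophage genes. These counts are 3.63% and 6.69% of the tested genes, or 10.3% in either direction, by the limma trend test on log2(TPM + 1) with a Benjamini-Hochberg adjusted p under 0.05. The median change over all tested genes was -0.07 on the log2 scale. Among genes that rose, 416 of 547 changed by more than 1 on that scale and 103 by more than 2; among genes that fell, 589 of 1008 and 122. Genes that rose held 8.18% and 10.5% of all TPM on day 12 and 19.6% and 18.6% on day 21, and genes that fell held 20.2% and 19.3%, then 10.7% and 10.8%; both pairs of shares follow from how the genes were picked. The balance of rises and falls depended on scaling, since 35.2% of called genes were higher as deposited, 48.1% after quantile normalization and 49.4% after median-ratio scaling. Leaving out single libraries lowered the rises to between 92 (without day 21 library 3) and 206 (without day 12 library 3) and the falls to between 113 (without day 12 library 2) and 210 (without day 12 library 3), and 152 of the 1555 genes passed in all 4 such fits.

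**Figure D1:**
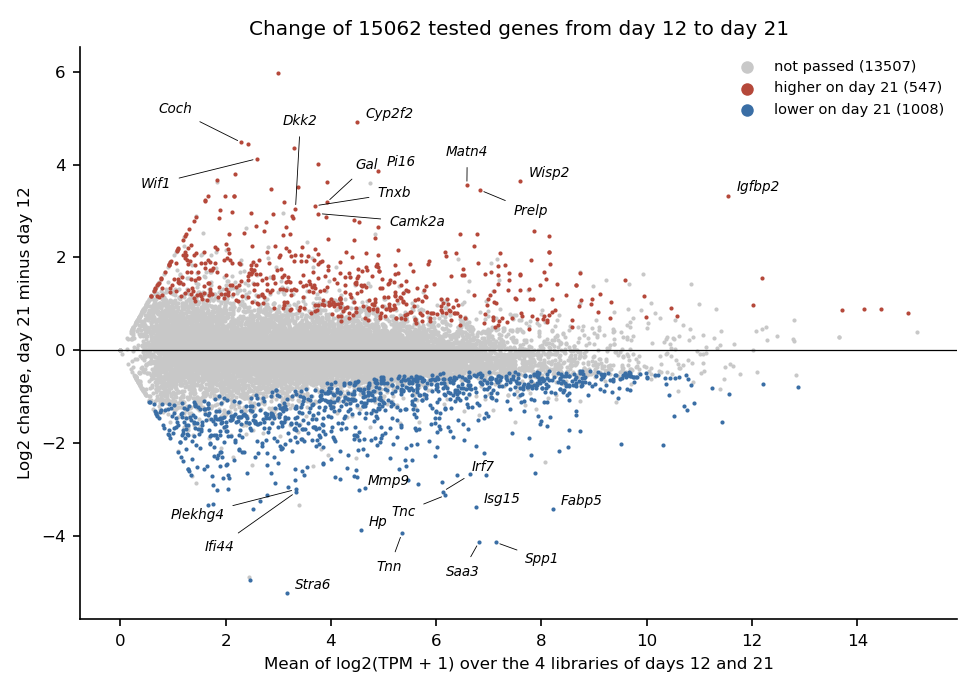
Each point is 1 of the 15062 tested genes, placed by its mean log2(TPM + 1) over the 4 libraries of days 12 and 21 (horizontal) and its log2 change from day 12 to day 21 (vertical); the 547 genes that rose are red, the 1008 that fell blue and the rest grey. Names mark the 12 rises and 12 falls chosen by size of change, from Cyp2f2 at 4.92 to Stra6 at -5.23.

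The largest rises among well-expressed genes were of secreted proteins, matrix proteins and enzymes. Igfbp2, which binds insulin-like growth factors, was the most abundant of them, at 772 and 1147 TPM on day 12 and 7634 and 11743 TPM on day 21 (log2 change 3.33 ± 0.32 SE, limma adjusted p = 0.00141). Wisp2, a matricellular protein of the CCN family, moved from 62.2 and 46.6 TPM to 593 and 782 TPM (3.64 ± 0.28, adjusted p = 0.000662). Cyp2f2, a cytochrome P450 enzyme lying on chromosome 7 at 27119909 to 27133660 of GRCm38, moved from 3.29 and 2.89 TPM to 147 and 102 TPM (4.92 ± 0.35, adjusted p = 0.000599). In these 3 genes the lowest day 21 library stood far above the highest day 12 library, and all 3 passed in every fit that left out 1 library.

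Pi16, a surface-bound peptidase inhibitor that marks fibroblasts of the adventitia and fascia, went from 4.44 and 10.1 TPM to 95.4 and 133 TPM (log2 change 3.87, limma adjusted p = 0.0021). Matn4, an adaptor protein of filamentous matrix, went from 19.2 and 37.8 TPM to 420 and 255 TPM (3.55, adjusted p = 0.00299). Prelp, a leucine-rich proteoglycan that anchors basement membranes to collagen, went from 26.8 and 41.8 TPM to 404 and 350 TPM (3.45, adjusted p = 0.00141). No day 21 value of these overlapped a day 12 value. The neuropeptide gene Gal rose from 3.77 and 4.29 TPM to 49.4 and 40.4 TPM, the tenascin gene Tnxb from 2.15 and 5.15 TPM to 41.5 and 33 TPM, and the kinase gene Camk2a from 2.92 and 5.07 TPM to 41.8 and 31.9 TPM. Coch, a secreted protein with von Willebrand factor domains, was at 0 and 0.09 TPM on day 12, at 32.6 and 15.05 TPM on day 21 and at 50.7 and 219 TPM on day 26. The Wnt inhibitors Wif1 and Dkk2 complete the 12 and are described with their pathway. The calls of Coch and Wif1 were lost in at least 1 fit without a library, with adjusted p up to 0.0515 and 0.0626.

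The 12 largest falls among well-expressed genes included matrix, acute-phase and interferon-stimulated genes, and also Stra6, Fabp5, Mmp9 and Plekhg4. Macrophage markers were also lower on day 21 (given with the other cell types), and their part in these 12 falls was not tested. Tnc, the matrix glycoprotein tenascin-C of early granulation tissue, fell from 202 and 224 TPM to 23.7 and 23.2 TPM, with a log2 change of -3.13 ± 0.14 SE and the lowest adjusted p among all 24 of these genes (limma, 6.1e-05). Tnn, tenascin-N, fell from 128 and 197 TPM to 11.4 and 7.68 TPM (-3.95, adjusted p = 0.000606). Spp1, the secreted phosphoprotein osteopontin, fell from 851 and 408 TPM to 31.5 and 33.5 TPM (-4.14, adjusted p = 0.000599). All 3 passed without any 1 library, and their day 21 libraries lay close together well below day 12.

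Stra6, the cell-surface receptor for retinol-binding protein, had the largest fall of all tested genes, from 51.6 and 55.9 TPM on day 12 to 0.58 and 0.34 TPM on day 21 (log2 change -5.23 ± 0.60 SE, limma adjusted p = 0.00259). Its day 15 libraries stood at 1.52 and 10.9 TPM, below both day 12 libraries (adjusted p = 0.1 for day 15 against day 12). Fabp5, a fatty acid binding protein, went from 936 and 1016 TPM to 99.7 and 80.4 TPM (-3.43, adjusted p = 0.000754), and the gelatinase gene Mmp9 from 66.2 and 62.9 TPM to 10.9 and 4.61 TPM (adjusted p = 0.00299). Plekhg4, which encodes a guanine nucleotide exchange factor, fell from 33.3 and 22.6 TPM to 2.25 and 2.89 TPM. The acute-phase genes Saa3 and Hp differed widely between the day 12 libraries, Saa3 at 951 and 232 TPM and Hp at 269 and 29.5 TPM. On day 21 Saa3 was at 14.6 and 45 TPM and Hp at 4.25 and 6.3 TPM, below both day 12 libraries. Without single libraries, adjusted p reached 0.117 for Saa3 and 0.134 for Hp. Isg15, Irf7 and Ifi44 are described with the interferon genes.

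**Figure D2:**
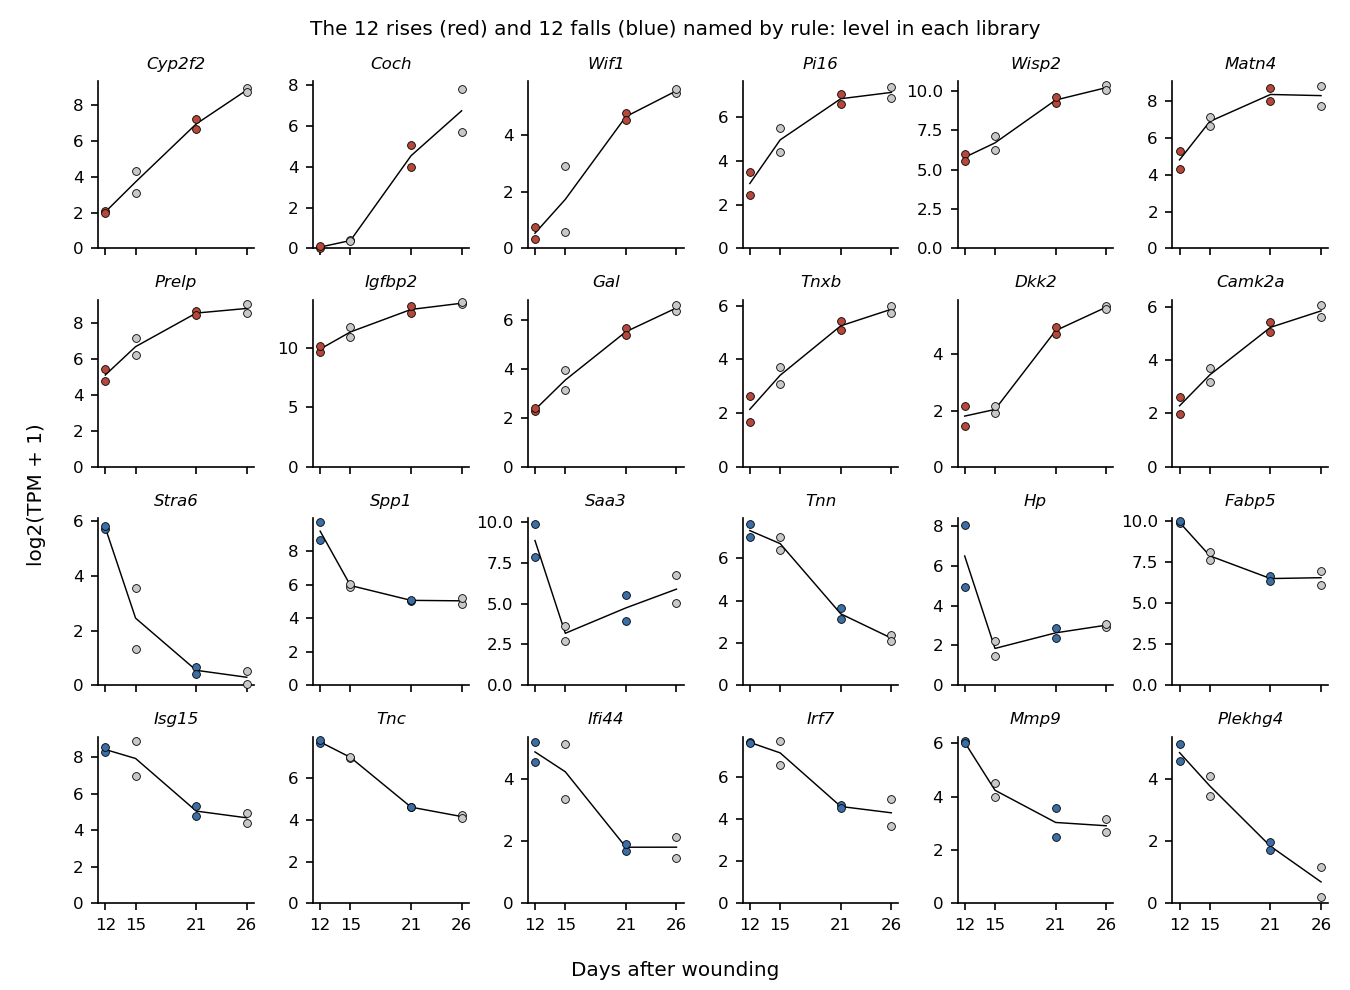
Level of the 12 rises (red) and 12 falls (blue) in each of the 8 libraries as log2(TPM + 1) (vertical) by day after wounding (horizontal); points are libraries, coloured for days 12 and 21 and grey for days 15 and 26, and lines join the day means. The rule that chose these genes asked for no overlap between days 12 and 21, so the gap between those points is not a finding; Stra6, Spp1, Saa3 and Hp are already low on day 15.

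Genes of the contractile machinery held a smaller share of all TPM on day 21, 0.36% and 0.291%, than on day 12, 0.76% and 0.678%. Of 23 tested contractile genes, 12 fell and none rose, where 6.69% of all tested genes fell; the list median was -1.02 on the log2 scale against -0.07 over all genes. Acta2, the smooth muscle alpha-actin by which myofibroblasts are recognised, fell from 1609 and 1353 TPM to 449 and 292 TPM (log2 change -2.02 ± 0.34 SE, limma adjusted p = 0.00937). Actg2, the gamma smooth muscle actin, fell from 218 and 205 TPM to 37.7 and 27.2 TPM (-2.69 ± 0.17, adjusted p = 0.000349). The thin-filament genes Tpm2, a tropomyosin, and Cnn1, a calponin, fell from 489 and 482 TPM to 163 and 149 TPM and from 14 and 10.8 TPM to 0.56 and 1.86 TPM. Zyx and Csrp1, which encode focal adhesion and actin-bundle proteins, fell by 1.47 and 1.78 on the log2 scale. Myocd, a coactivator of serum response factor that drives smooth muscle genes, fell from 4.53 and 2.97 TPM to 0.78 and 0.42 TPM.

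Tagln missed the threshold, at a log2 change of -1.30 and an adjusted p of 0.0503, with both day 21 libraries below both day 12 libraries. Myh11, smooth muscle myosin, and Des, the intermediate filament desmin, also did not pass, at -1.21 and -0.86. Actg2, Tpm2 and Cnn1 passed without any 1 library; adjusted p reached 0.0951 for Acta2, 0.0626 for Zyx, 0.0682 for Csrp1 and 0.152 for Myocd, and between 3 and 6 contractile genes fell in such fits. None of 12 tested pericyte and vascular smooth muscle markers passed, although their median was -0.68 and 1 was lower when only the 4 libraries of days 12 and 21 were fitted. Their summed level was 1742 and 1381 TPM on day 12 and 1268 and 741 TPM on day 21, lower in the day 21 libraries; its part in the contractile result was not tested. CArG boxes, the sites of serum response factor, were searched only as CC, 6 bases of A or T, and GG. Sites differing in any letter were not counted. Of 19 contractile genes with a RefSeq promoter window 3 held this pattern, among them 1 of the 10 that fell, against 1.57% of 27025 windows.

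Matrix genes moved in both directions, where 3.63% of all tested genes rose and 6.69% fell. Among 20 tested fibrillar and fibril-associated collagens, 5 rose and 1 fell, with a median of -0.07; quantile normalization gave 2 and 2, median-ratio scaling 2 and 1, and fits without 1 library 1 to 2 rises and 1 fall. Col1a1, the main chain of type I collagen, rose from 14131 and 19263 TPM to 34736 and 27182 TPM (log2 change 0.90, limma adjusted p = 0.0407), and its partners Col1a2 and Col3a1 rose by 0.86 and 0.89. Col14a1, which binds fibril surfaces, rose from 91.5 and 129 TPM to 313 and 364 TPM (1.62 ± 0.17 SE, adjusted p = 0.00207). Col7a1, the anchoring fibril collagen beneath epidermis, fell from 168 and 209 TPM to 81.5 and 51.9 TPM (-1.51, adjusted p = 0.0054). Col14a1 and Col7a1 passed without any 1 library; adjusted p reached 0.245 for Col1a1, 0.258 for Col1a2 and 0.243 for Col3a1.

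Small leucine-rich proteoglycans, which coat and space collagen fibrils, rose in 6 of 12 tested members and fell in 1, with a median of 0.93. Dcn, decorin, rose from 2805 and 3153 TPM to 5724 and 5968 TPM (log2 change 0.97, limma adjusted p = 0.0105). Fmod, fibromodulin, rose from 92.3 and 93.6 TPM to 312 and 278 TPM (1.65, adjusted p = 0.00365), and Podn, podocan, from 16.6 and 20.9 TPM to 70.5 and 68.4 TPM (1.85, adjusted p = 0.00401). Kera, keratocan, went the other way, from 88.9 and 65.3 TPM to 23.8 and 34.7 TPM (-1.37, adjusted p = 0.00988). Without single libraries 3 to 5 members rose and 0 to 1 fell, with adjusted p up to 0.0961 for Dcn and 0.0912 for Kera.

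Elastic fibre genes rose in 8 of 17 tested members and fell in none, with a median of 0.75. Eln, the elastin precursor, was at 82.4 and 172 TPM on day 12 and 505 and 856 TPM on day 21 (log2 change 2.45 ± 0.45 SE, limma adjusted p = 0.0129). Mfap4, a microfibril-associated glycoprotein, rose from 2426 and 3044 TPM to 7190 and 8827 TPM (1.55, adjusted p = 0.00707), and the fibulin gene Efemp1 to 85 and 82.7 TPM, from a day 12 mean of 25 TPM (1.71, adjusted p = 0.00108). Fbn1, the fibrillin scaffold of microfibrils, and Fbln5, a fibulin needed for elastic fibre assembly, rose by 0.79 and 1.32. Efemp1 passed without any 1 library, while the number of rises went from 1 to 6 and adjusted p reached 0.116 for Eln, 0.0819 for Mfap4, 0.115 for Fbn1 and 0.0866 for Fbln5.

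Crosslinking enzymes changed in both directions. Of 23 tested genes for collagen modification, 3 rose and 3 fell, or 5 and 1 after quantile normalization: Lox, lysyl oxidase, rose from 254 and 343 TPM to 654 and 601 TPM and Loxl4 from 7.23 and 11.6 TPM to 35.1 and 27.9 TPM, while Loxl2 fell from 343 and 445 TPM to 209 and 154 TPM and Loxl3 from 48.4 and 58.3 TPM to 32.9 and 26 TPM. Serpinh1, the collagen chaperone, also rose and Bmp1, a procollagen peptidase, also fell. Only 0 or 1 of these rises and no fall passed in fits without 1 library, with adjusted p up to 0.158 for Lox, 0.153 for Loxl2, 0.146 for Loxl3 and 0.0581 for Loxl4.

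Proteases and their inhibitors gave 4 rises and 4 falls among 27, where 3.63% of all tested genes rose and 6.69% fell. These counts became 8 and 2 after quantile normalization and 5 and 3 after median-ratio scaling. Both were lower in fits without 1 library. Mmp3, stromelysin, rose from 124 and 70.8 TPM to 633 and 497 TPM (log2 change 2.57 ± 0.25 SE, limma adjusted p = 0.00151) and stood at 1837 and 2193 TPM on day 26. Timp3, an inhibitor bound to matrix, rose from 70.7 and 97.7 TPM to 348 and 258 TPM (1.84, adjusted p = 0.00579), and Timp1, a soluble inhibitor, fell by 0.59. Mmp3 and Mmp9 passed without any 1 library, Timp3 up to an adjusted p of 0.0621 and Timp1 up to 0.223. Among 18 basement membrane genes 3 rose, the laminin chains Lama2, Lamb2 and Lamc3. The 2 that fell, Nid2 and Col18a1, are near the share of all tested genes that fell. The scalings gave 6 rises and 1 fall (quantile) and 5 and 2 (median ratio), and 0 to 1 of the 18 passed in fits without 1 library.

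Genes of cell division fell together. Of 30 tested mitosis genes, 26 fell and none rose, with a median of -1.71, and of 30 DNA replication genes, 20 fell and none rose, with a median of -1.05. Birc5, survivin of the chromosomal passenger complex, fell from 56 and 63.5 TPM to 14.9 and 14 TPM (log2 change -1.97 ± 0.18 SE, limma adjusted p = 0.00104). Ccna2, cyclin A2, fell from 41.3 and 46.9 TPM to 11.2 and 10.5 TPM (-1.93, adjusted p = 0.00166). Mki67, the proliferation marker, fell from 6.1 and 6.27 TPM to 1.89 and 1.53 TPM (-1.41, adjusted p = 0.0158). All 30 mitosis genes had both day 21 libraries below both day 12 libraries, as did 29 of 30 replication genes, where 34.6% of all tested genes did.

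Among replication genes, Rfc3, a clamp loader subunit, fell from 33.1 and 28.7 TPM to 8.84 and 12.4 TPM and Uhrf1, which maintains DNA methylation at forks, from 14.4 and 21.1 TPM to 4.42 and 4.78 TPM. The smallest passing fall was that of Pcna, the sliding clamp, from 89.6 and 90.1 TPM to 59.1 and 51.3 TPM (log2 change -0.70, limma adjusted p = 0.0229). Of 15 listed inhibitors of the cycle, 4 rose and none fell. Outside that list, the cycle inhibitor gene Cdkn1c fell by 1.19 on the log2 scale (limma adjusted p = 0.00579). The antiproliferative gene Btg3, also outside it, fell by 1.59 (adjusted p = 0.00299), so such genes moved in both directions. Cdkn2a, whose products restrain CDK4 and MDM2, rose from 6.36 and 8.71 TPM to 26 and 28.2 TPM (1.73 ± 0.21 SE, adjusted p = 0.00326). Cdkn1a, p21, rose from 85.9 and 88.3 TPM to 251 and 219 TPM (1.42, adjusted p = 0.00509), Cdkn2b, p15, from 17.4 and 22.1 TPM to 49.4 and 60.2 TPM (1.43, adjusted p = 0.00427), and Gas2, a microtubule and actin linker of growth-arrested cells, by 1.85. The p53 gene Trp53 and Cdkn1b, p27, did not pass, at -0.17 and -0.22. Without single libraries 8 to 12 mitosis genes and 1 or 2 replication genes fell and 2 to 4 inhibitors rose, with adjusted p up to 0.103 for Mki67, 0.142 for Pcna, 0.0616 for Rfc3, 0.0539 for Uhrf1, 0.0554 for Cdkn1a, 0.0556 for Cdkn2b and 0.0986 for Gas2.

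The promoters of mitosis genes carry paired elements, the cell cycle homology region CHR (TTTGAA) and the CCAAT box (CCAAT), through which the DREAM and B-MYB complexes and NF-Y act. In RefSeq windows of GRCm38.p6 from 250 bases before to 50 bases after the start site, searched on both strands, 17 of the 23 mitosis genes with a window held TTTGAA and 20 held CCAAT, against 18.1% and 37.9% of 27025 windows. In the windows printed here no match of 1 motif overlaps a match of the other. Below are the 2 falling mitosis genes with the lowest adjusted p that held both, Ube2c (chr2:164769679-164769978, plus strand), a ubiquitin-conjugating enzyme of the anaphase-promoting complex, and Aurka (chr2:172370521-172370820, minus strand), the kinase Aurora A, with both motifs in capitals.
Ube2c: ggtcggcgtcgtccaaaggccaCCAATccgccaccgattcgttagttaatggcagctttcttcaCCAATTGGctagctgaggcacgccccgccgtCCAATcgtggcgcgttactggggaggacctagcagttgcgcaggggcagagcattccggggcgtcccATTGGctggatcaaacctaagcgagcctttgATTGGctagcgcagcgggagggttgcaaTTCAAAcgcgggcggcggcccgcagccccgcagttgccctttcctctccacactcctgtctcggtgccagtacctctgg
Aurka: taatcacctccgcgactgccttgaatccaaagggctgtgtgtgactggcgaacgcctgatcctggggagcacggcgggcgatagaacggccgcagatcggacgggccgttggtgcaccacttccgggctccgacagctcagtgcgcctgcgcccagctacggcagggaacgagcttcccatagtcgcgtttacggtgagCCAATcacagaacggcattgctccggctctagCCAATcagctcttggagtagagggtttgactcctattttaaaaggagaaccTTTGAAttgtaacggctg
Ube2c fell from 71.1 and 72.4 TPM to 18 and 15.8 TPM and Aurka from 16.7 and 16.4 TPM to 2.45 and 3.75 TPM. The TTTGAA match of Ube2c begins at base -29, on the opposite strand, and that of Aurka at base 33, counted from the start site. A match is a description of letters and no measure of binding.

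Interferon-stimulated genes fell almost as a block. Of 28 tested members 23 fell and none rose, with a median of -2.09, where 6.69% of all tested genes fell. Both day 21 libraries lay below both day 12 libraries in 27 of 28, and in 34.6% of all tested genes. Isg15, the ubiquitin-like modifier, fell from 313 and 381 TPM to 26.7 and 39.2 TPM (log2 change -3.38 ± 0.52 SE, limma adjusted p = 0.00709). Rtp4, a Golgi chaperone induced by interferon, fell from 98.5 and 134 TPM to 14.7 and 16.8 TPM (-2.79, adjusted p = 0.0022). Irf7, which amplifies type I interferon, fell from 200 and 198 TPM to 24.7 and 22 TPM (-3.04, adjusted p = 0.00522). The antiviral genes Mx2, a dynamin-like GTPase, and Oas1a, an oligoadenylate synthetase, fell from 17.6 and 17 TPM to 1.28 and 2.73 TPM and from 53.6 and 52.7 TPM to 8.74 and 7.48 TPM; Ifi44 fell from 35.1 and 22.5 TPM to 2.22 and 2.79 TPM. Irf1 did not pass, at a log2 change of 0.13.

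The day 15 libraries disagreed on these genes: Isg15 was at 124 and 483 TPM, and the list median lay 0.93 below the day 12 mean in the first and 0.25 above it in the second. Rtp4 and Mx2 passed without any 1 library; adjusted p reached 0.0746 for Isg15, 0.0659 for Irf7, 0.0603 for Oas1a and 0.0913 for Ifi44, and 3 to 6 members fell in such fits. Reads shared among the Oas and Ifit paralogs make their single levels uncertain. Macrophages also use these genes, and macrophage markers were lower on day 21 (given with the other cell types); their part in the interferon result was not tested.

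Interferon-stimulated genes are switched on through the interferon-stimulated response element, searched here on both strands as its core, 2 copies of GAAA with any 2 bases between them. Of 19 members with a promoter window 9 held it, 8 of them among the 15 that fell, against 3.49% of all 27025 windows. The 2 falling members with the lowest adjusted p that held it were Oas1a (chr5:120907476-120907775, minus strand) and Isg15 (chr4:156200769-156201068, minus strand), with overlapping matches in capitals.
Oas1a: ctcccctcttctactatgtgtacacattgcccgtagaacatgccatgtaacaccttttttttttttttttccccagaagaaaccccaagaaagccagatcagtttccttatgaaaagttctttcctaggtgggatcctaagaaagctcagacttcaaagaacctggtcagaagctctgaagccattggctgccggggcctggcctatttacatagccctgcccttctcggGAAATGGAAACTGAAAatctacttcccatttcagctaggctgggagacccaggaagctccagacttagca
Isg15: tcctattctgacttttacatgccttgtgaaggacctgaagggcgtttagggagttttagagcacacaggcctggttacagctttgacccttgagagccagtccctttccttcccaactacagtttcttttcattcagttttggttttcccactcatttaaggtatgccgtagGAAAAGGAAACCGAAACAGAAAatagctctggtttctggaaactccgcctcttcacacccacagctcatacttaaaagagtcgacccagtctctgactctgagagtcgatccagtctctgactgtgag
The core began at bases -20 and -14 in Oas1a and at bases -78, -72 and -66 in Isg15, where the repeats share letters.

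Ligands and receptors of the Wnt, BMP, TGF-beta and Hedgehog families changed gene by gene. Over all tested genes 3.63% rose and 6.69% fell, and the falls in the BMP and TGF-beta lists below were near the latter share. Wnt proteins bind Frizzled and LRP receptors to stabilise beta-catenin, and secreted antagonists hold them back; in skin the pathway patterns hair follicles and dermis. Of 27 Wnt ligands, receptors and targets 6 rose and 1 fell, with a median of 0.33, and of 12 secreted antagonists 3 rose and none fell, with a median of 0.52; without single libraries 1 to 3 rose in either list. The ligand Wnt16 rose from 1.95 and 1.98 TPM to 10.7 and 9.36 TPM (log2 change 1.89 ± 0.23 SE, limma adjusted p = 0.00351), while Wnt2b fell from 3.92 and 4.5 TPM to 0.68 and 0.55 TPM (-1.69, adjusted p = 0.00988). Rspo4, an R-spondin that boosts the signal, and its receptor Lgr5 rose from 13.9 and 22.1 TPM to 53.3 and 52 TPM and from 14.9 and 20 TPM to 98.9 and 65.2 TPM. Dkk2, an antagonist acting on LRP, rose from 1.74 and 3.45 TPM to 25.6 and 30.3 TPM (3.05 ± 0.26, adjusted p = 0.000838), and Wif1, which binds Wnt ligands, from 0.25 and 0.68 TPM to 26.5 and 22.3 TPM (4.13 ± 0.60, adjusted p = 0.00579). The target Axin2 did not pass, at 0.79. Wnt16 and Dkk2 passed without any 1 library; adjusted p reached 0.074 for Wnt2b, 0.0869 for Rspo4 and 0.0724 for Lgr5.

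BMP genes gave 5 rises and 2 falls among 30, with a median of 0.24, and 0 to 1 of each in fits without 1 library. Bmp4, a ligand that can commit mesenchymal cells towards fat, rose from 4.77 and 8.07 TPM to 28 and 23.8 TPM (log2 change 1.89 ± 0.34 SE, limma adjusted p = 0.0122). Grem1, a secreted BMP antagonist, fell from 24.6 and 18 TPM to 5.64 and 5.14 TPM (-1.79, adjusted p = 0.00522), and the antagonist Chrd, chordin, rose from 6.53 and 7.71 TPM to 24.4 and 15.7 TPM (1.34, adjusted p = 0.0161). The type I receptor Bmpr1b fell from 2.08 and 3.38 TPM to 0.38 and 0 TPM. Its relative Bmpr1a did not pass (0.31, adjusted p = 0.347), nor did the targets Id1, Id2 and Id3, at 0.33, 0.38 and 0.77. Single left-out libraries brought adjusted p to 0.102 for Bmp4, 0.0639 for Grem1, 0.12 for Chrd and 0.131 for Bmpr1b.

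In the TGF-beta pathway, which maintains the myofibroblast state, 2 of 20 genes rose and 1 fell, where 3.63% and 6.69% of all tested genes did. An unadjusted limma p under 0.05 was reached by 6 of these 20 and by 3934 of all 15062 tested genes. Tgfb2, a ligand, fell from 42.7 and 51.5 TPM to 19.9 and 19.6 TPM (log2 change -1.20 ± 0.16 SE, limma adjusted p = 0.0044), also without any 1 library. The coreceptor Tgfbr3 rose from 34.5 and 38.9 TPM to 84.3 and 80.4 TPM (1.15, adjusted p = 0.0118, up to 0.0994 without 1 library). Tgfbr2, the type II receptor, was at 121 and 149 TPM on day 12 and at 219 and 226 TPM on day 21 and missed the threshold (0.73, adjusted p = 0.0611). Hedgehog pathway genes rose in 3 of 12 and fell in none, with a median of 0.90. The summed level of the list did not rise, at 616 and 717 TPM on day 12 and 580 and 581 TPM on day 21. Boc, Hhip and Gas1 did not pass, at 1.11, 1.43 and -0.45. The transcription factor Gli1 rose from 0.69 and 0.82 TPM to 7.72 and 10.3 TPM and the coreceptor Cdon by 0.99; 0 or 1 of the 3 that rose passed in fits without 1 library.

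The IGF system gave 2 rises and 4 falls among 11, but 3 and 1 after median-ratio scaling and 2 and 2 after quantile normalization, and 1 to 2 rises and 1 fall in fits without 1 library. Beside Igfbp2, the binding protein Igfbp6 rose by 1.53. Igf2, a fetal growth factor expressed from the paternal allele, fell from 99.2 and 184 TPM to 17.3 and 17.6 TPM (log2 change -2.88 ± 0.32 SE, limma adjusted p = 0.00219). Igf1 fell from 380 and 307 TPM to 188 and 200 TPM (-0.81, adjusted p = 0.0438, up to 0.248 without 1 library). Imprinted genes, many of which promote growth before birth, fell in 6 of 18 and rose in none, with a median of -0.29. Nnat, a small membrane protein, fell from 22.4 and 28.5 TPM to 2.18 and 3.44 TPM (-2.80, adjusted p = 0.00219). Mest, an alpha/beta hydrolase, fell from 576 and 603 TPM to 85.2 and 102 TPM (-2.65, adjusted p = 0.00452), and Dlk1, a Notch-like inhibitor of adipogenesis also called Pref-1, from 36.5 and 60.2 TPM to 8.7 and 6.02 TPM (-2.54, adjusted p = 0.00471). H19 fell from 211 and 152 TPM to 38.5 and 55.6 TPM, and Meg3, a maternally expressed RNA of the Dlk1 locus, did not pass, at 0.81. Igf2 and Nnat passed without any 1 library, with adjusted p up to 0.0535 for Mest, 0.0608 for Dlk1 and 0.178 for H19. FGF and PDGF genes rose in 4 of 20 and fell in none: the receptors Fgfr2 and Fgfr4, the ligand Fgf9 and Pdgfrl, a receptor-like protein at 227 and 266 TPM on day 12 and 673 and 630 TPM on day 21. Pdgfrl passed without any 1 library, with adjusted p up to 0.14 for Fgfr2, 0.0581 for Fgfr4, 0.0958 for Fgf9 and 0.11 for Igfbp6.

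Of the fat cell genes, a few early regulators rose and a few lipid-handling genes fell. Zfp423, a transcription factor of committed preadipocytes, rose from 4.55 and 3.92 TPM to 12.34 and 17.5 TPM (log2 change 1.59 ± 0.27 SE, limma adjusted p = 0.0103, up to 0.0942 without 1 library). The other rises among 24 adipogenic regulators were of Cebpd, which acts early in adipogenesis, Klf4, and Gata3, which holds preadipocytes back; none fell, and the list median was 0.44. Pparg, the master regulator, was at 4.55 and 3.44 TPM on day 12 and 6.7 and 3.47 TPM on day 21, with overlapping libraries (0.24, adjusted p = 0.738). None of 18 tested adipocyte genes rose and 3 fell: Fabp5, the lipid droplet gene Plin2 at 219 and 165 then 108 and 79.4 TPM, and the fatty acid transporter Cd36 at 21 and 21 then 7.12 and 6.63 TPM. Fabp4, an adipocyte fatty acid binding protein, stood at 79.6 and 62.7 TPM on day 12 and 34.6 and 31.8 TPM on day 21, short of the threshold (-1.07, adjusted p = 0.22). Fabp5 passed without any 1 library, and adjusted p reached 0.118 for Cebpd, 0.179 for Klf4, 0.176 for Gata3, 0.142 for Plin2 and 0.112 for Cd36. Adipoq, adiponectin, was under the level needed for testing. Fabp5, Plin2 and Cd36 are also used by macrophages, whose markers were lower on day 21, and their part in these falls was not tested.

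Signals to other cells shifted between families. Of 25 chemokines and cytokines 8 rose and 7 fell, or 8 and 4 after median-ratio scaling, and 2 to 5 rose and 0 to 3 fell without single libraries. Cxcl14, a chemokine made constitutively in skin, rose from 7 and 8.74 TPM to 58.6 and 59.6 TPM (log2 change 2.77 ± 0.17 SE, limma adjusted p = 0.000349), and Cxcl12, the ligand of CXCR4, from 87.2 and 82.7 TPM to 171 and 220 TPM (1.18, adjusted p = 0.00579). Csf1, the macrophage growth factor, rose from 23.8 and 23.6 TPM to 57.6 and 53.3 TPM (1.19, adjusted p = 0.00359), and the alarmin gene Il33 from 8.45 and 15.08 TPM to 46.1 and 57.5 TPM (2.09, adjusted p = 0.00545). The neutrophil chemokine gene Cxcl5 fell from 60.8 and 20.3 TPM to 4.5 and 8.33 TPM, and Cxcl16 from 60.8 and 36 TPM to 13.6 and 18.1 TPM. Cxcl14 and Csf1 passed without any 1 library; adjusted p reached 0.0657 for Cxcl12, 0.0699 for Il33, 0.214 for Cxcl5 and 0.19 for Cxcl16. Complement genes rose in 5 of 13 and fell in 1, the rises being the regulators Serping1 and Cd55 and the classical pathway components C1ra, C1s1 and C2. Serping1, the C1 inhibitor, rose from 686 and 633 TPM to 1473 and 1499 TPM (1.17 ± 0.12, adjusted p = 0.00198). It passed without any 1 library, and 1 or 2 complement genes rose in such fits.

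Genes of resting and fascia fibroblasts rose in 6 of 17 and fell in none, with a median of 0.70. Beside Pi16, Cd34, a sialomucin of stromal progenitors, rose from 40 and 80.4 TPM to 191 and 237 TPM (log2 change 1.89, limma adjusted p = 0.00619), and Ly6c1 from 91.5 and 139 TPM to 392 and 491 TPM (1.95, adjusted p = 0.00509). Dpp4 and Pdgfra did not pass, at 1.03 and 0.48, and reads shared among Ly6 paralogs leave Ly6c1 uncertain. Single left-out libraries brought adjusted p to 0.0736 for Cd34 and 0.0673 for Ly6c1, and 1 to 5 members passed. Of 19 dermal papilla genes 4 rose and 2 fell, against 0 to 1 and 1 without single libraries; Ptn, the growth factor pleiotrophin, fell from 270 and 235 TPM to 39.6 and 37.8 TPM (-2.67 ± 0.28 SE, adjusted p = 0.00207). Among 27 dermal transcription factors 3 rose and 5 fell, which turned to 6 and 3 after quantile normalization and 5 and 3 after median-ratio scaling, with 1 to 2 rises and 1 fall without single libraries. Osr2 rose from 87 and 135 TPM to 359 and 320 TPM (1.64, adjusted p = 0.00388), and Snai2, a repressor of epithelial genes, fell from 50.1 and 55.2 TPM to 22.8 and 21.8 TPM (-1.20, adjusted p = 0.00369). Twist2 rose by 0.70, and Prrx1 and Twist1, broad fibroblast factors, did not pass, at 0.08 and -0.11. Ptn, Osr2 and Snai2 passed without any 1 library, Twist2 up to an adjusted p of 0.211.

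Enzymes that handle vitamin A and foreign compounds also changed. Of 16 retinoid genes 4 rose and 4 fell, or 4 and 2 under either scaling, and 1 to 3 rose and 1 fell without single libraries. Cyp26b1, which degrades retinoic acid, rose from 11.7 and 13.5 TPM to 34.1 and 37.2 TPM (log2 change 1.43, limma adjusted p = 0.00401, up to 0.0517 without 1 library), and Rbp4, plasma retinol-binding protein, from 38.5 and 62 TPM to 153 and 181 TPM (1.74, adjusted p = 0.0153, up to 0.121). Rdh10, which makes retinal, fell by 1.05 (adjusted p up to 0.14 without 1 library). Of 20 detoxification genes 9 rose and 2 fell, with a median of 0.74, and 2 to 4 rose and 1 fell without single libraries. Adh1, an alcohol and retinol dehydrogenase, rose from 50.9 and 43.8 TPM to 197 and 264 TPM (2.25 ± 0.17 SE, adjusted p = 0.000614). Hmox1, heme oxygenase, fell from 349 and 283 TPM to 49.4 and 46.1 TPM (-2.70 ± 0.21, adjusted p = 0.000664). Both passed without any 1 library. Glycolysis and hypoxia genes fell in 7 of 25 and rose in none, with a median of -0.41: Pgk1 went from 157 and 154 TPM to 55.3 and 80.1 TPM and Gapdh from 1122 and 1083 TPM to 573 and 649 TPM, with 0 to 2 falls in fits without 1 library. Cholesterol genes gave 1 rise, Insig1, among 20, and secretory pathway genes 2 falls, Sdf2l1 and Pdia4, among 23. These counts are near the shares of all tested genes, of which 3.63% rose and 6.69% fell. Each of these calls was lost in at least 1 fit without 1 library.

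**Figure D3:**
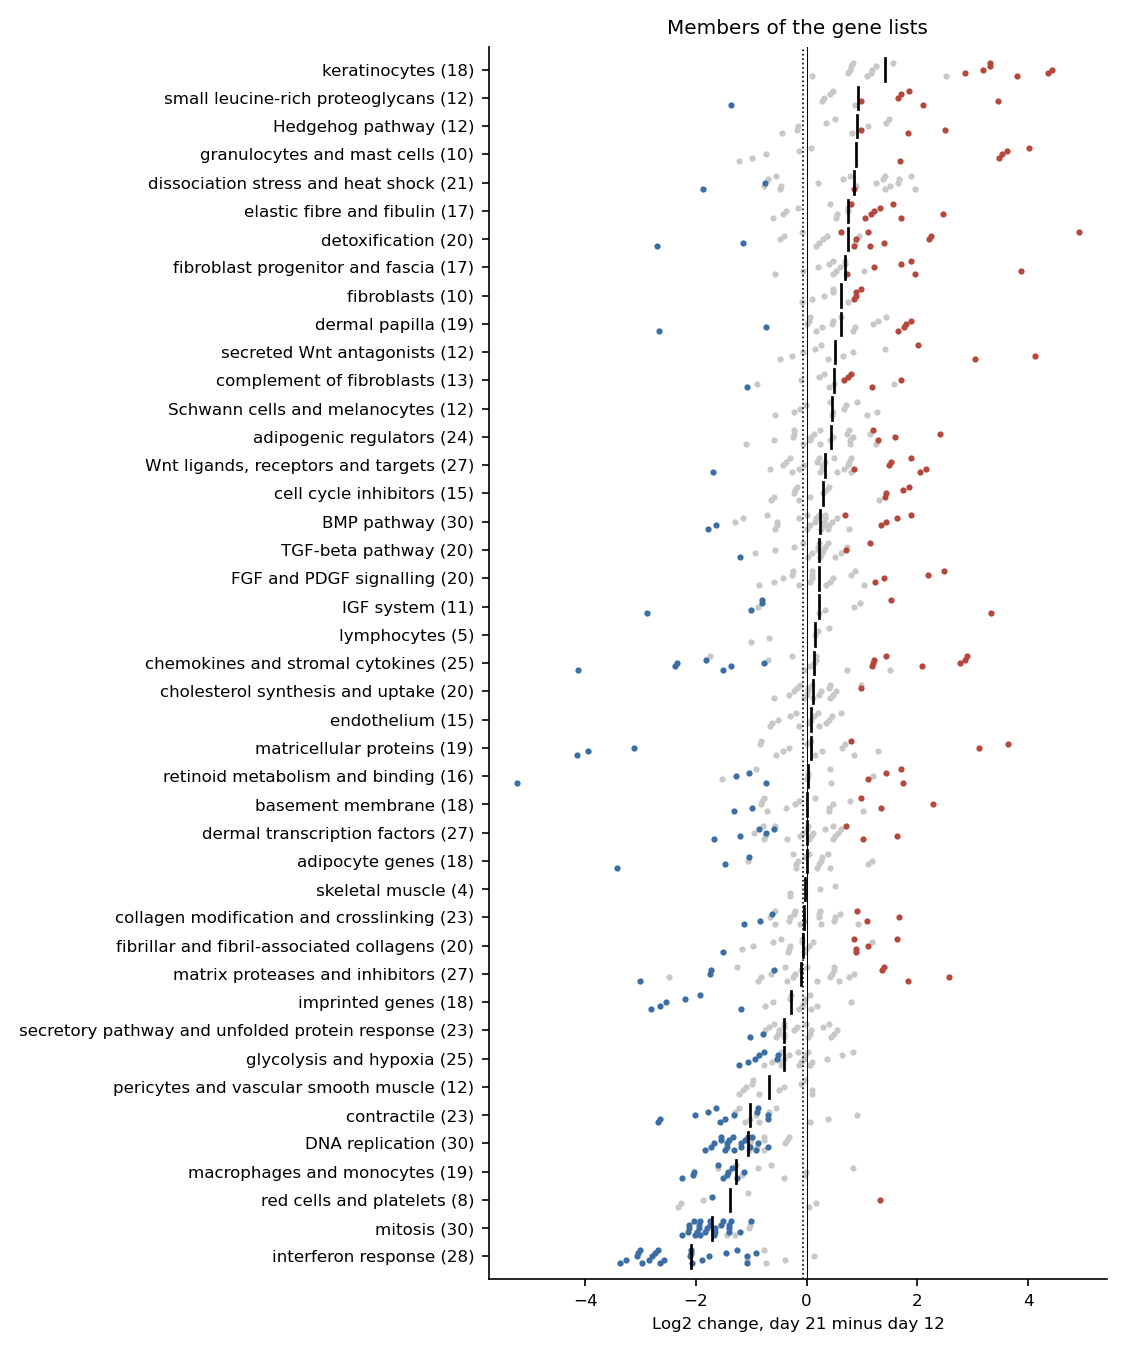
Each point is a tested member of a gene list, placed by its log2 change from day 12 to day 21 (horizontal), red where it rose, blue where it fell and grey where it did not pass; rows are the lists, with the number of tested members in brackets, ordered by their median (black bar), and the dotted line is the median of all tested genes at -0.07. Interferon response and mitosis have the lowest medians, -2.09 and -1.71, and keratinocytes the highest, 1.41.

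Markers of other cell types moved with the comparison. Macrophage and monocyte markers fell in 10 of 19 and rose in none; their summed level was 7521 and 5184 TPM on day 12 and 2664 and 2663 TPM on day 21, with no marker at 0. Lyz2, lysozyme, fell from 3163 and 2100 TPM to 635 and 620 TPM (log2 change -2.04, limma adjusted p = 0.00563) and Ctss, cathepsin S, from 532 and 444 TPM to 98.8 and 104 TPM (-2.25, adjusted p = 0.00396), while the receptors Csf1r and Mrc1 did not pass, at -0.02 and -0.03. Ctss passed without any 1 library, Lyz2 up to an adjusted p of 0.0679, and 1 to 7 macrophage genes fell in such fits. Keratinocyte markers rose in 7 of 18 and fell in none, from a summed 12.6 and 16.3 TPM to 164 and 199 TPM; Krt5 and Krt14, the keratins of basal epidermis, rose from 0.35 and 0 TPM to 18.8 and 30.8 TPM and from 1.47 and 0.91 TPM to 37.2 and 50.8 TPM, and 6 and 8 of 21 markers were at 0 on day 12. Among mast cell genes Mcpt4 rose from 1.55 and 3.46 TPM to 39.1 and 72.3 TPM. Cpa3 rose from 0.81 and 1.63 TPM to 18.2 and 29.5 TPM, while the receptor gene Kit did not pass, at 0.09. There were 5 rises among 10 tested granulocyte and mast cell markers. The listed markers summed to 30.8 and 21.9 TPM, then 128 and 238 TPM. In fits without 1 library 5 to 7 keratinocyte and 1 to 3 mast cell genes rose, with adjusted p up to 0.0603 for Mcpt4. None of the tested markers of endothelium (15), skeletal muscle (4), Schwann cells and melanocytes (12) or lymphocytes (5) passed; endothelial markers summed to 273 and 227 TPM, then 227 and 218 TPM.

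The sum of 22 immediate early and heat shock genes, which respond to tissue dissociation, was 6120 and 6257 TPM on day 12 and 14522 and 9962 TPM on day 21. Of 21 tested, 1 rose, Jund, and 2 fell, Hsp90aa1 and Hspa1b. These counts are near the shares of all tested genes, of which 3.63% rose and 6.69% fell. The calls were lost in every fit without 1 library. The list median was 0.86, and Fos and Nr4a1 stood at 1.42 and 1.96 without passing. A fit of only the 4 libraries of days 12 and 21 gave 12 higher and 3 lower. The part of these changes in cell makeup and handling in the gene lists above was not tested.

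On day 15, 13 genes were higher and 11 lower than on day 12 (0.0863% and 0.073% of tested genes), while 74 genes were higher and 137 lower on day 21 than on day 15 (0.491% and 0.91%). The contrasts share libraries and are not independent. The day 15 libraries differed in sex-linked transcripts, with Xist at 30.7 and 5.54 TPM and Ddx3y at 0 and 23.95 TPM. The part of sex in the day 15 contrasts was not tested. Mitosis genes had a list median 0.11 and 0.49 below the day 12 mean in the day 15 libraries and 1.78 and 1.66 below it in the day 21 libraries. Macrophage markers instead were 1.38 and 0.64 below the day 12 mean on day 15 and 1.29 and 1.33 below it on day 21, so their libraries of days 15 and 21 overlapped. In the main fit Spp1, Fabp5 and Saa3 fell and Adh1 and Cxcl14 rose already from day 12 to day 15. Most calls of that step were lost under either scaling, with no variance trend and without single libraries. Actg2 fell at both steps, by 1.35 and then by 1.33, with 85.4 and 78.9 TPM on day 15. Tnc was at 126 and 128 TPM on day 15 and fell from there to day 21 (limma adjusted p = 0.000625).

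**Figure D4:**
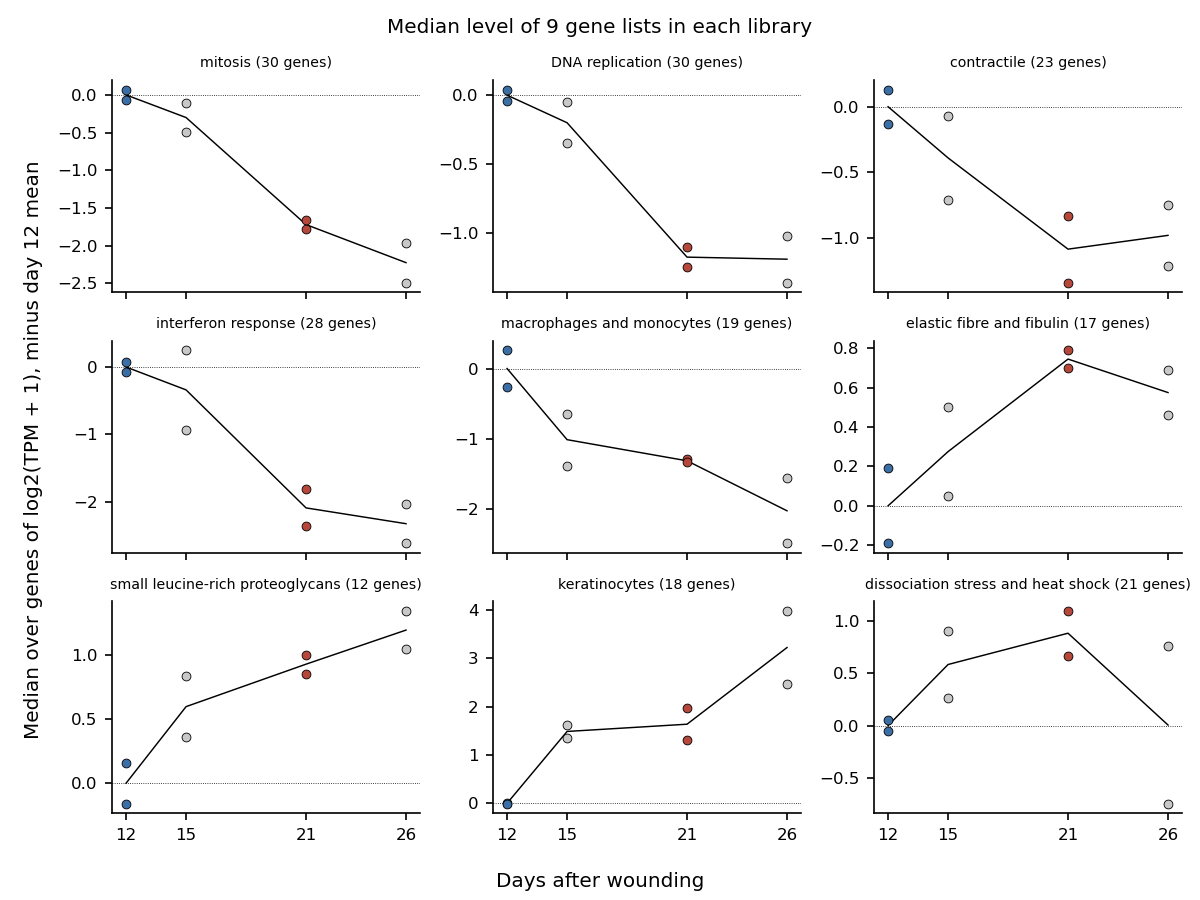
Median over the tested members of 9 gene lists of log2(TPM + 1) minus the mean of the day 12 libraries (vertical) in each library by day (horizontal); blue points are day 12, red day 21, grey days 15 and 26, and lines join day means. Mitosis medians in the day 21 libraries are -1.78 and -1.66, below both day 15 libraries at -0.11 and -0.49, while the day 15 and day 21 points of the macrophage markers overlap.

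From day 21 to day 26 only 15 genes rose and 33 fell (0.0996% and 0.219% of tested genes). Outside markers, small RNAs and gene models, 5 genes passed in opposite directions in the 2 steps. Adam33, a membrane metalloprotease, went from 38.5 and 39.9 TPM on day 12 to 174 and 168 TPM on day 21 and back to 66.8 and 60.4 TPM on day 26 (limma adjusted p = 0.00131, then 0.0421). Per1, a repressor of the circadian clock, went from 22.2 and 15.4 TPM to 39.4 and 42.5 TPM and then to 12.4 and 15.09 TPM, and Stard9, a mitotic kinesin, went the same way. Btg3, an antiproliferative gene, went from 24 and 23.2 TPM to 7.99 and 6.45 TPM and back to 21 and 23.5 TPM (adjusted p = 0.00299, then 0.042), and the interferon-inducible GTPase gene Iigp1 from 41.4 and 42.2 TPM to 13.4 and 10.1 TPM and then 28.2 and 35.3 TPM. The calls of Adam33, Btg3 and Iigp1 from day 12 to day 21 held without any 1 library; adjusted p reached 0.109 for Per1 and 0.242 for Stard9. Against day 12, day 26 had 792 genes higher and 1770 lower (5.26% and 11.8%), with the day 12 libraries shared. None of the 48 calls of day 26 against day 21 remained without either day 21 library, when both counts were 0. The mast cell genes Mcpt4 and Cpa3 followed the same course as Adam33, to 1.41 and 7.04 TPM and 0.94 and 2.05 TPM on day 26.

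In the authors' deposited table of 5 clusters, chosen by them on these libraries, 71.3% of the genes that rose belong to C4 and 7.13% to C3, and 64% of those that fell belong to C1 and 24.4% to C2. The authors' deposited table gives for C3 a ratio of day 21 to day 12 between 1 and 16.2, with a median of 1.4; the highest is that of a mast cell protease gene, named Mcpt3 there under the gene ID that the expression table gives to Mcpt4, followed by Cma1 at 13 and Cpa3 at 11.2.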

How the data were processed

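Viable tdTomato-high cells were sorted after collagenase digestion and made into SMART-seq2 libraries, per the labels' protocols. The authors deposited a table with 1 signal value for every gene and library; it was read as TPM plus 1, because the values less 1 sum to 1000000 in each column within rounding, and 1 was subtracted. RSEM 1.12.2 and mm10 are named in the submitters' processing notes, and for the aligner and annotation nothing is given in the sources used here. Sequencing depth is unknown, since TPM keep none, so no counting interval can be given. SMART-seq2 keeps no strand, so overlapping genes and paralogs are uncertain. The deposited cluster tables give the authors' p-value per gene and, for C3, a ratio of day 21 to day 12; their 40 value columns per sample were not used. Column names hold the day plus numbers other than the labels' replicate numbers, so they were assigned to days only.

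Genes with at least 1 TPM in 2 libraries were tested by limma 3.58.1 (R 4.3.3, trend) on log2(TPM + 1) over all 8 libraries with day as a factor, 2-sided, with Benjamini-Hochberg adjustment over 15062 genes per contrast; an adjusted p under 0.05 passed, and only such genes are said to have risen or fallen. Low genes have a larger fold than their log2 change on this scale. The script was tested on simulated data. The comparison, the 44 gene lists and the rules were chosen with earlier results of these data known. Named were the 12 largest rises and falls among passing genes at or above the median level with no overlap between the days (without marker genes, small RNAs, pseudogenes and gene models), up to 5 passing members of each list, 10 fixed genes and genes that passed in opposite directions from day 12 to 21 and 21 to 26. Some of these genes are not reported here, and some named list members fall outside the rule and were chosen after their values were seen. Gene positions are from GENCODE vM21 and promoter sequences from RefSeq, GRCm38.p6. Alternatives were 2 other pseudocounts, 2 other filters, 2 scalings, 3 other variance models or sample sets, a block and each library left out in turn.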

Additional observations from a re-analysis of the deposited data

How the results depend on the processing

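The count of genes higher on day 21 than on day 12 was 547 and stayed within 1.5 times of that except with no filter on low values (289) and without single libraries (92 to 206). The count of lower genes, 1008, changed by more with no filter (468), with no variance trend (608) and without single libraries (113 to 210). The share of called genes that were higher was 35.2% as deposited, 48.1% after quantile normalization and 49.4% after median-ratio scaling. The 24 genes changed from day 12 to day 15 became 3 with no filter, 4 under either scaling, 1 with no trend and 0 to 2 without single libraries. For day 15 to day 21 the 211 genes became 134 with a pseudocount of 0.1, 44 with no filter, 127 after median-ratio scaling, 51 with no trend and 2 to 37 without single libraries. For day 21 to day 26 the 48 genes became 15 with a pseudocount of 0.1, 10 with no filter, 28 with at least 5 TPM in 2 libraries, 12 with no trend and 0 to 31 without single libraries. The cause was not tested, except that a fit without a library has fewer samples and the unfiltered fit adjusts over 25556 genes. A fit with the column number as a replicate block on days 12 and 21 gave 701 higher and 1203 lower genes; labels do not tie those numbers to shared animals, so nothing was paired in the main fit. That fit used only the 4 libraries of days 12 and 21. With the block 6 of 12 pericyte and vascular smooth muscle markers were lower. The same 4 libraries without it gave 1, and the main fit of 8 libraries none. Of 21 dissociation genes 12 were higher in the 4 libraries both with and without the block, against 1 in the main fit. Of the named genes, the sign of the log2 change turned without day 21 library 2 for Pparg (-0.15 to 0.63 over the fits without 1 library) and the lymphocyte marker Trbc2 (-1.52 to 0.16), without day 12 library 3 for Twist1 (-0.30 to 0.07), and in 4 alternatives each for Csf1r (-0.26 to 0.22) and Mrc1 (-0.29 to 0.23). None of these 5 had passed. With 2 libraries a day and unknown depth, small changes and low genes are not resolved.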

Other observations

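Genes on the X chromosome were called lower more often than higher: of 487 tested, 4 were higher and 45 lower on day 21 than on day 12 (8.16% of called genes higher), against 539 and 958 on chromosomes 1 to 19 (36%). For day 26 against day 12, which shares the day 12 libraries, the X chromosome gave 15 and 57 (20.8%) and chromosomes 1 to 19 gave 776 and 1700 (31.3%). The day 12 and day 26 libraries had almost no Xist, 0.01 TPM at most, and the part of sex in these counts was not tested.

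The circadian genes Per1 and Cry2 were the only 2 of 16 clock genes, a list chosen after values were seen, that passed from day 12 to day 21, both higher. Cry2 stood at 17.5 and 13.5 TPM on day 12 and 29.7 and 29.6 TPM on day 21 (log2 change 0.90 ± 0.21 SE, limma adjusted p = 0.0307). The clock output gene Dbp was at 52.1 and 50.7 TPM, then 99.7 and 96.4 TPM, without passing (0.92, adjusted p = 0.549), and its day 26 libraries lay far apart at 17.5 and 174 TPM. The hour of harvest is not given in the labels.

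Of 249 small RNA gene models tested, 10 were higher and 10 lower on day 21, where 3.63% and 6.69% of all tested genes were. Among the higher ones 6 were above 0 TPM only in the day 21 libraries, at low levels of 1.03 to 6.41 TPM. Snord118, a small nucleolar RNA chosen after its values were seen, fell from 111 and 47.1 TPM to 16.2 and 22.2 TPM.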
